A study of Panax notoginseng with 2 samples.

Results

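The loci described here are long genes of Panax notoginseng roots for which the sequenced RNA gave a splice form that the reference annotation does not hold. A locus was a member when the transcript listed for it carried the Cufflinks class code j and its interval, introns included, covered 10000 bases or more. Class code j marks a transcript that shares at least 1 splice junction with a reference gene but differs from it elsewhere. Of all 147111 loci, 16118 had class j. Of these, 4710 were members and 11408 were under 10000 bases; the shorter ones are called compact here. Class codes come from an assembly of sequenced RNA, so membership is not independent of expression.

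Panax notoginseng is a medicinal relative of ginseng grown for its root. The plants were grown in a field. One RNA library came from roots of plants given 5 µM cadmium and 1 from roots of untreated control plants, with no strain, genotype or plant age in the labels. All differences below are between these 2 libraries, without replicates, and cannot be assigned to the treatment. No p-value was computed. Fewer cells of a type and less RNA per cell cannot be told apart in such whole-root RNA.

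Splicing removes introns from a primary transcript, and alternative splicing joins different exons or keeps an intron, so that 1 gene gives several mRNAs. In plants the retention of an intron is the most frequent kind. A long interval on the genome can reflect long introns as well as a long mRNA, so the length used here is not that of the RNA. Cadmium is a toxic metal with no nutritional role in land plants. Root cells bind it with thiol compounds and store it in vacuoles. The files give each locus an identifier and that of 1 reference gene, with no name or function. The root label could therefore not be checked against marker genes, and the loci are described by position.

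Levels were deposited as FPKM, fragments scaled to transcript length and library size. A locus was taken as tested when it reached 1 FPKM in at least 1 library. In loci listed as 1 exon, whose values fall in whole fragment steps, 11.9 fragments per kilobase made up 1 FPKM of the cadmium library, and 19.8 that of the control library. The exon file covered none of the members. The summed exon length, and with it the number of fragments behind a member's FPKM, is therefore unknown.

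The length of a long locus was not always its own. Loci that overlap carry 1 common interval in the table, and none of the 142706 distinct intervals overlaps another. An interval of their own was held by 3260 members, and the other 1450 (30.8%) shared theirs with at least 1 other locus. Among compact loci 889 (7.79%) shared an interval. For 517 of the sharing members the first listed exon started after the interval did. For 196 of them fewer than 10000 bases remained from that exon to the interval end, so by the listed exon these are shorter than the rule asks. A sharing member can also end before its interval does, so 196 is a minimum. Results are therefore also given for members with an interval of their own, where the length is that of the locus itself.

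The members had a median length of 16347 bases, and those with an interval of their own 15244.5 bases. They lay on 3439 of the 32485 scaffolds and contigs. Of these, 2585 held 1 member each and 30 held 5 or more. On the plus strand there were 2315 members and on the minus strand 2395. Each member named a different reference gene, 4710 in all.

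Nearly all long loci were expressed. Of the 4710 members, 4585 (97.3%) were tested, against 10277 of the 11408 compact loci (90.1%) and 23.0% of all loci. Only 6 members were listed at 0 in both libraries, against 680 compact loci. The compact loci nearest in length, of 8000 to under 10000 bases, were tested about as often (96.9%), with 5 at 0 in both libraries. Of those under 2000 bases 65.2% were tested, and 288 were at 0 in both. At least 1 FPKM was reached by 4483 members in the cadmium library and by 4448 in the control library. Transcripts with a new splice form were assembled from RNA, so few loci at 0 is what the choice of class j favours.

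Typical levels of long and compact loci were close, but very high levels were rarer among the long ones than among compact loci as a whole. The median of tested members was 13.6 FPKM in cadmium (quartiles 6.41 and 28.7) and 11.9 FPKM in control (quartiles 5.54 and 24.9). Compact loci had medians of 13.1 FPKM in cadmium and 12.3 FPKM in control. In the cadmium library 219 tested members (4.78%) reached 100 FPKM, against 855 compact loci (8.32%). In the control library 176 members (3.84%) and 777 compact loci (7.56%) did so. Across the tested members, locus length and mean FPKM were hardly related (Spearman's rho -0.01, n = 4585 loci of the same 2 libraries).

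The comparison of the libraries asks which of these loci stood at another level in cadmium-treated roots. It used log2((cadmium FPKM + 1)/(control FPKM + 1)), which understates the difference of low loci. Higher and lower below mean a log2 ratio of at least 1 and of at most -1, which is 2-fold. By this rule 725 of the 4585 tested members (15.8%) were higher in cadmium, where the share over all 33904 tested loci was 20.6%. Lower in cadmium were 411 members (8.96%), against 28.6% of all tested loci. The other 3449 members were within 2-fold. The median log2 ratio of the members was 0.16, and over all tested loci it was -0.07.

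Compact loci with new splice forms were past 2-fold more often in both directions. Of 10277 tested compact loci, 2145 (20.9%) were higher and 1727 (16.8%) lower in cadmium, with a median log2 ratio of 0.13. The medians of long and compact loci thus differed by 0.04 on the log2 scale. The spread differed more. The middle 50% of log2 ratios spanned 1.03 among the members, against 1.45 among compact loci and 1.97 among all tested loci. Within 1.5-fold of each other were both levels of 54.0% of the members, 41.6% of compact loci and 33.3% of all tested loci.

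The excess of higher over lower members depended on the scaling between the libraries. A scaling moves nearly all log2 ratios by the same amount, so the narrower spread could not be tested this way. With the FPKM as deposited, higher members made up 63.8% of those past 2-fold. When the upper quartiles of loci above 0 FPKM were made equal, a shift of the cadmium library by -0.19 on the log2 scale, this share was 52.5%. Higher were then 576 members and lower 522, where 17.6% of all tested loci were higher and 31% lower. The median of the members then stood at -0.0030. The span of the middle 50% was 1.03 for the members and 1.43 for compact loci in that setting. A pseudocount of 5 gave 476 higher and 234 lower members, against 11.2% and 15.7% of all tested loci.

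**Figure D1:**
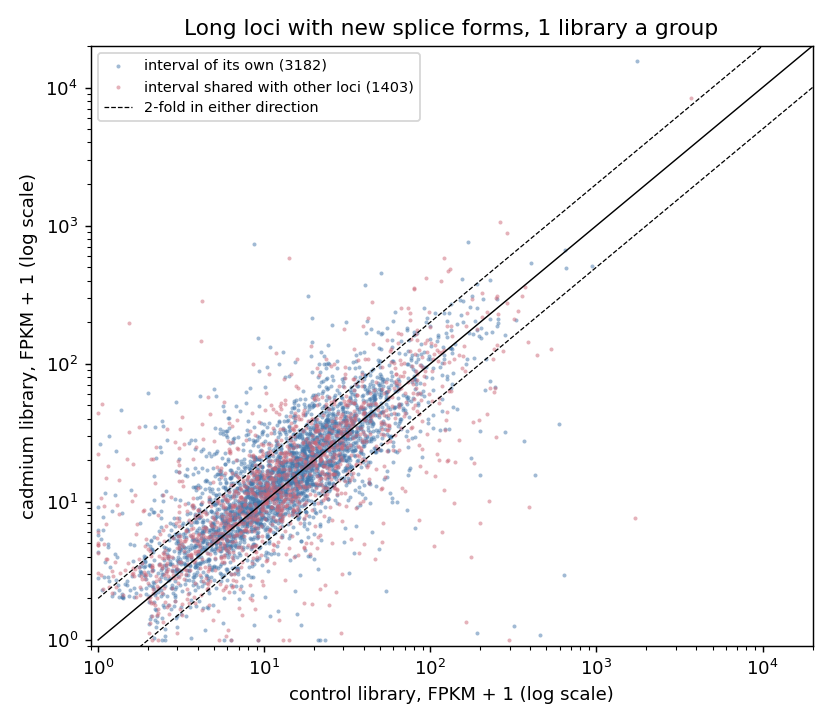
Level of each of the 4585 tested long loci, as FPKM + 1 on log axes, in the cadmium library (vertical) and the control library (horizontal). Each point is 1 locus, blue with an interval of its own (3182) and red with a shared one (1403). The solid line marks equal levels and the dashed lines 2-fold, and most points lie between the dashed lines.

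Members with an interval of their own stood closest together. Of 3182 tested, 475 (14.9%) were higher and 229 (7.20%) lower in cadmium, where all tested loci with an interval of their own had 20.3% higher and 29.9% lower. The middle 50% of their log2 ratios spanned 0.98. Of 1403 tested members with a shared interval, 250 (17.8%) were higher and 182 (12.97%) lower, with a span of 1.23. Compact loci with an interval of their own had 20.5% higher and 16.9% lower, with a span of 1.44.

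Along the length of class j loci with an interval of their own, the share of lower loci became smaller with length. Under 2000 bases 31.2% of 638 tested loci were lower in cadmium, and from 8000 to under 10000 bases 11.6% of 1167 were. Inside the long range the share was 8.61% of 1533 loci from 10000 to under 15000 bases and 6.401% of 703 from 15000 to under 20000. It was 5.97% of 586 loci from 20000 to under 30000 bases and 4.72% of 360 loci of 30000 bases or more. The decline therefore ran on past 10000 bases, the length that defines the members.

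The share of higher loci became smaller along the compact bins and varied little along the long ones. Their share was 28.5% under 2000 bases and 15.7% from 8000 to under 10000 bases. In the 4 long bins, by increasing length, it was 14.7%, 15.9%, 15.5% and 13.1%. The span of the middle 50% of log2 ratios was 2.49 under 2000 bases, 0.99 from 10000 to under 15000 bases and 0.87 at 30000 bases or more. Across all 12603 tested class j loci with an interval of their own, length and the absolute log2 ratio had a Spearman's rho of -0.22. Within the 3182 long ones it was -0.04, so length ordered the size of the difference little among the members themselves.

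With shared intervals included, the lower share varied less with length. It was 9.23%, 9.26%, 8.52% and 8.31% of all tested members in the same 4 long bins.

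**Figure D2:**
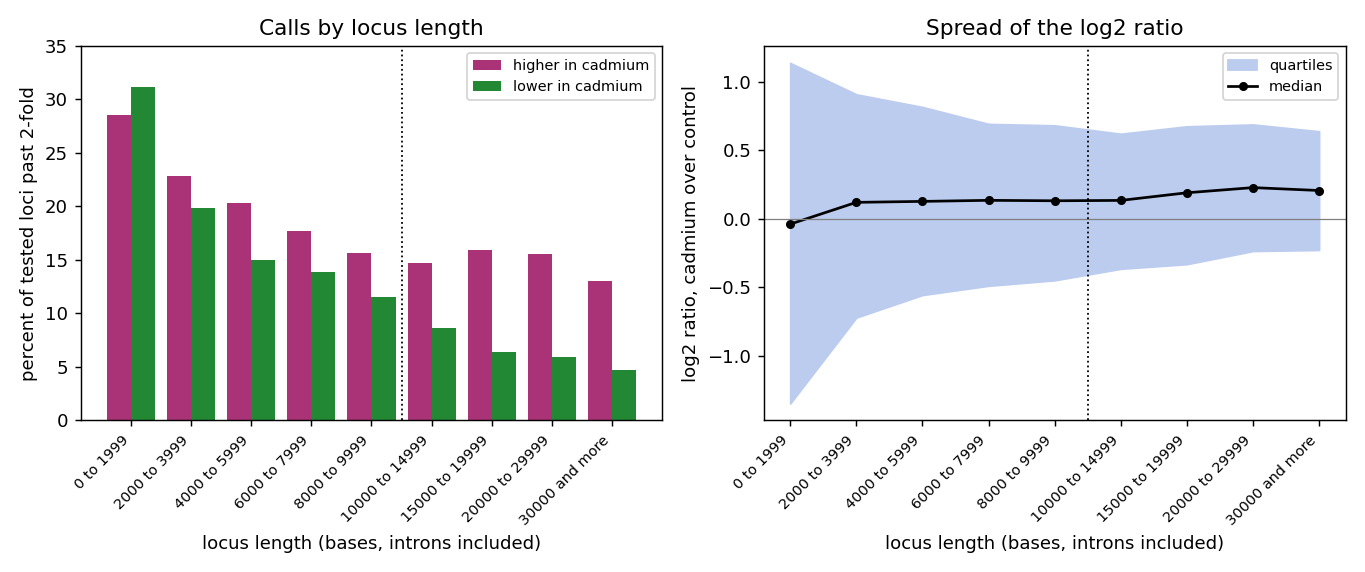
Class j loci with an interval of their own, in 9 bins of locus length in bases with introns included; the dotted line marks 10000 bases. Left, the percentage of tested loci higher (purple) or lower (green) by 2-fold in cadmium. Right, the median (black points) and quartiles (band) of the log2 ratio of cadmium over control. The green bars shrink to 4.72% at 30000 bases or more, and the band narrows.

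Long loci were lower less often than compact ones at each level of expression examined. Loci with an interval of their own were divided by the mean FPKM of both libraries. Under 5 FPKM, 9.12% of long and 16.8% of compact loci were lower in cadmium. From 5 to 10 FPKM the lower shares were 5.72% and 15.97%, and from 10 to 20 FPKM 5.65% and 16.2%. From 20 to 50 FPKM they were 7.68% of long and 16.3% of compact loci, and at 50 FPKM or more 9.97% and 19.3%. In each of these 5 bins the lower share of the long loci was thus below that of the compact ones.

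Higher loci were about as frequent in both kinds at the highest level. The higher share was 11.1% of long and 21.7% of compact loci under 5 FPKM. At 50 FPKM or more it was 25.5% of long and 26.1% of compact loci. In that highest bin the 321 long loci had a median log2 ratio of 0.36 and the 1636 compact loci one of 0.18. Longer transcripts collect more fragments at the same FPKM. As the exon lengths of the members are unknown, the part of counting precision in the narrower spread was not tested.

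**Figure D3:**
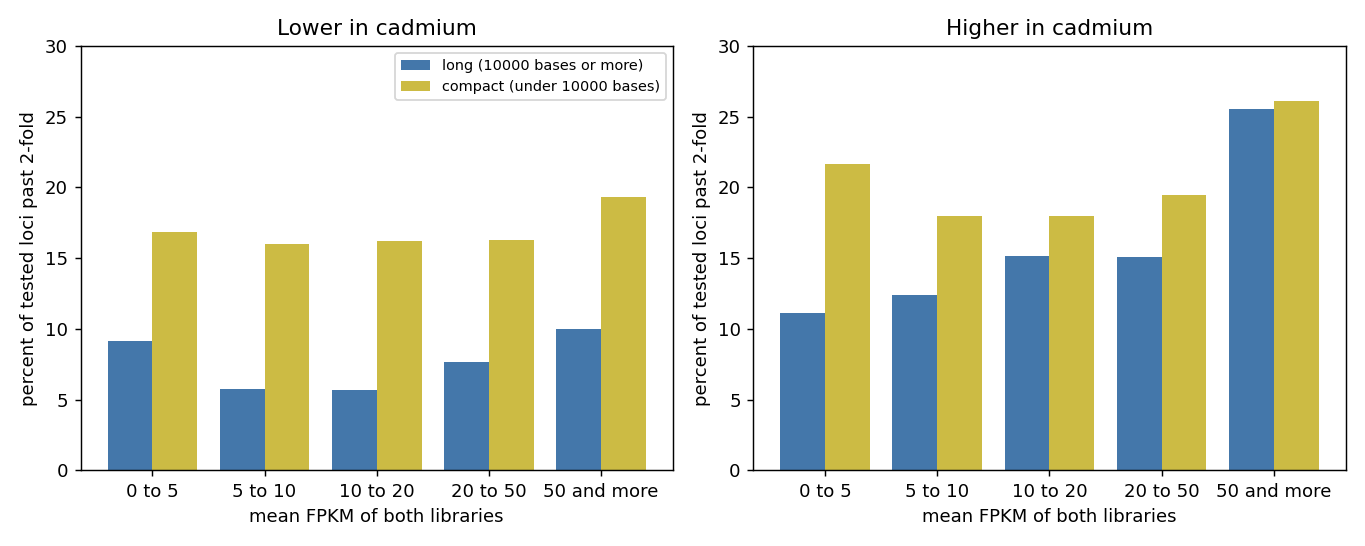
Percentage of tested class j loci with an interval of their own that were lower (left) or higher (right) by 2-fold in cadmium, by mean FPKM of both libraries. Blue bars are long loci and yellow bars compact loci. On the left every blue bar stands below its yellow neighbour; on the right the last pair is nearly level at 25.5% and 26.1%.

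The members were lower less often than long loci listed with the annotated structure. The class code is that of 1 listed transcript per locus, and a locus of either kind can hold transcripts of other classes. Of the members with an interval of their own 229 of 3182 (7.20%) were lower and 475 (14.9%) higher in cadmium. Of the reference-structure loci of 10000 bases or more with an interval of their own 77 of 416 tested (18.5%) were lower and 57 (13.7%) higher. The median log2 ratio was 0.17 for these members and -0.11 for the reference-structure loci, and the middle 50% spanned 0.98 and 1.30. Levels differed too. The medians of these members were 13.9 FPKM in cadmium and 12.03 FPKM in control, against 8.27 FPKM in cadmium and 8.52 FPKM in control for the reference-structure loci. The part of level in this difference was not tested.

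A larger share of long than of compact loci had several transcription start sites in the assembly. The assembly numbers groups of transcripts that begin at the same place, and the gaps in that numbering gave the number of such groups per locus. This number matched the exon file for 1689 of the 1693 loci that could be compared, 16 of 16 class j loci among them. One start-site group was found in 1316 members, 2 in 1909 and 3 or more in 1485. The last were 31.5% of the members, against 16.3% of the compact loci. The largest number was 10 in the members and 7 in compact loci.

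The number of start sites went with a slightly higher level and little with the difference between the libraries. Tested members with 1 start-site group had medians of 12.6 FPKM in cadmium and 10.8 FPKM in control. Those with 4 or more had medians of 15.0 FPKM in cadmium and 13.8 FPKM in control. With 1, 2, 3 and 4 or more groups, the shares higher in cadmium were 15.3%, 15.4%, 16.4% and 17.5%. The shares lower were 7.997%, 9.08%, 10.3% and 8.35% in the same order. Compact loci stayed above the members in the lower share with the same number of groups, at 16.6% with 1 group and 14.5% with 4 or more. Members of both strands were alike in these counts, with 16.4% higher on the minus and 15.2% on the plus strand.

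The loci that shared an interval with members were of several classes. The 1450 sharing members occupied 1131 intervals, 682 of which held 2 loci and 449 held 3 or more, up to 13. Loci on both strands were found in 856 of them. Besides members, the intervals held 1678 loci. Of these 922 had the reference structure, and 360 of the 922 were tested. Of these 360, 50 were higher and 176 lower in cadmium, with a median log2 ratio of -0.94. The 481 intergenic loci there included 287 tested ones, with 60 higher, 83 lower and a median of -0.10. Antisense loci numbered 128, with 102 tested, 29 higher, 16 lower and a median of 0.38. The 140 loci with another exon overlap included 134 tested ones, with 19 higher, 44 lower and a median of -0.16. Lower in cadmium were 33.3% of all tested reference-structure loci of 10000 bases or more, a share that includes these 360. Of those with an interval of their own 18.5% were lower. Among shorter reference-structure loci it was 56.7%, and among all tested loci 28.6%. Whether reference-structure loci beside members differ from others of their class was not tested.

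In 149 members, none of which had an interval of its own, the reference gene was also named by another locus. Those other loci were 103 antisense loci, 41 with another exon overlap, 4 within an intron and 3 of a rarer class. Strandedness of the libraries is not given in the sources used here. Reads of a member and of an overlapping locus on the other strand therefore cannot be told apart with certainty.

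Pairs of members on opposite strands of 1 interval showed little common direction. In 127 intervals of 2 loci, 1 member lay on each strand and both were tested. Both were higher in 9 pairs and both lower in 2. One was higher and the other lower in 5, exactly 1 was past 2-fold in 58, and neither in 53. Of all tested members with a shared interval 17.8% were higher and 12.97% lower. Over all tested loci these shares were 20.6% and 28.6%. Whether partners go the same way more often than unrelated members was not tested. The log2 ratios of the partners had a Spearman's rho of 0.09 over the 127 pairs, which share both libraries. The median absolute difference within a pair was 1.02 on the log2 scale.

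**Figure D4:**
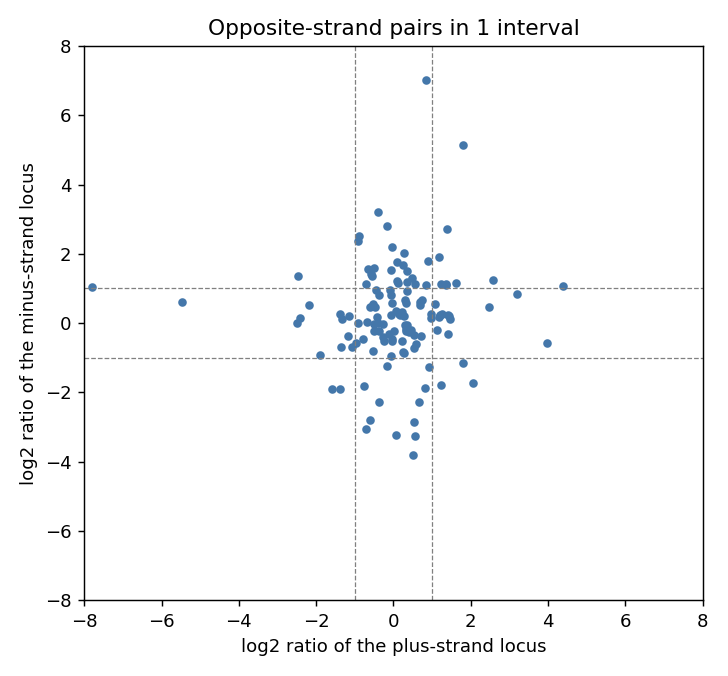
Log2 ratio of cadmium over control for the plus-strand locus (horizontal) and the minus-strand locus (vertical) of 127 intervals that hold 2 members on opposite strands. Each point is 1 pair and the dashed lines mark 2-fold. The points form no diagonal: 58 pairs have exactly 1 partner past 2-fold.

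The most extreme long loci differed far beyond 2-fold. Of the tested members 208 were at least 4-fold higher and 115 at least 4-fold lower on the scale used, where 7.86% and 14.1% of all tested loci were. The loci described next were taken by the size of the ratio among the 3093 members that reached 1 FPKM in each library and 10 in either. They were chosen for their size, so their ratios are a description.

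Highest by this rule was XLOC_026267, on scaffold113 from 404671 to 417774, with an interval of its own. It stood at 733 FPKM in the cadmium library, against 7.64 FPKM in the control library, a 95.8-fold ratio. XLOC_015480, on contig C4958245 from 377 to 13896, had 286 FPKM in cadmium, against 3.21 FPKM in control, 88.9-fold higher. It shares its interval with 2 loci that were not higher. One of them, on the minus strand, stood at 49.996 FPKM in cadmium and 63.6 FPKM in control. The other, on the plus strand, was lower, with 8.39 FPKM in cadmium and 34.4 FPKM in control.

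A partner in the interval was higher too for the next members. The member on scaffold7038 from 46575 to 64585 had 579 FPKM in cadmium, against 13.1 FPKM in control. A reference-structure locus on the other strand of that interval stood at 13697 FPKM in cadmium and 459 FPKM in control. Its listed exon lies within the first listed exon of the member, and which strand the reads came from was not tested. The member on scaffold5644 stood at 146 FPKM in cadmium and 3.16 FPKM in control, and its plus-strand partner at 253 FPKM in cadmium and 71.9 FPKM in control. From its first listed exon at 53438 to the interval end at 56631 there are only 3194 bases, so by its listed exon this member is not itself a long locus.

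The remaining 4 of the 8 highest had intervals of their own. On scaffold4700 from 25404 to 35426 the member stood at 60.9 FPKM in cadmium and 1.01 FPKM in control. On scaffold7696 from 14587 to 29052 the values were 52.1 FPKM in cadmium and 1.95 FPKM in control. Both were under 2 FPKM in the control library. On scaffold19264 from 23824 to 34176 the member stood at 153 FPKM in cadmium and 8.11 FPKM in control, and on scaffold27247 from 41635 to 54062 at 306 FPKM in cadmium and 17.5 FPKM in control.

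A higher ratio still was found below the control limit of that rule and is given after its values were seen. The minus-strand member on contig C4936201 from 18054 to 31483 had 198 FPKM in cadmium, against 0.53 FPKM in control, a log2 ratio of 7.02. Its plus-strand partner stood at 5.10 FPKM in cadmium and 2.39 FPKM in control. The interval is shared, and 5942 bases remain from the member's first listed exon to the interval end. By the FPKM alone a larger ratio was that of the plus-strand member on scaffold11210 from 4595 to 37529, also given after its values were seen. It stood at 50.1 FPKM in cadmium and 0.058 FPKM in control, with a log2 ratio of 5.59 on the scale with 1 added. Its interval holds 3 other loci.

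Lowest by the rule that asks for 1 FPKM in each library was XLOC_127893, on scaffold6504 from 97339 to 134737. It stood at 6.70 FPKM in cadmium and 1702 FPKM in control, 254-fold lower in cadmium, with a log2 ratio of -7.79 on the scale with 1 added. Its first listed exon began at 114816, and a minus-strand member beginning at 97339 stood at 4.18 FPKM in cadmium and 1.497 FPKM in control. Of this pair the plus-strand locus was lower and the minus-strand locus higher, by a log2 ratio of 1.05. XLOC_061615, on scaffold19414 from 66653 to 77228, has an interval of its own and stood at 1.96 FPKM in cadmium and 640 FPKM in control. By the FPKM alone it was 327-fold lower in cadmium, more than XLOC_127893, and on the scale with 1 added its log2 ratio was -7.76.

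Members below 1 FPKM in the cadmium library lay outside that rule. The 3 of them above 0 with the lowest log2 ratio are given after their values were seen. On scaffold2291 from 104296 to 117888 the cadmium library gave 0.078 FPKM, against 456 FPKM in control, a log2 ratio of -8.73. On contig C4968811 from 8124 to 93838 it gave 0.25 FPKM, against 319 FPKM in control, a log2 ratio of -7.997. Both of these ratios were below those of XLOC_127893 and XLOC_061615. On scaffold10474 from 217232 to 230515 it gave 0.11 FPKM, against 189 FPKM in control, and the log2 ratio of -7.41 was not. All 3 of these loci have an interval of their own.

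The other 6 lowest members by the rule had 1.28 to 14.6 FPKM in the cadmium library, against 52.8 to 428.6 FPKM in the control library. They lay on scaffold32541, scaffold13226, C4922387, scaffold10169, scaffold32086 and scaffold31721. Those on scaffold10169 (14.6 FPKM in cadmium, 429 FPKM in control) and scaffold32086 (1.28 FPKM in cadmium, 52.8 FPKM in control) had intervals of their own. On scaffold32541 between 917 and 31091 the member stood at 2.97 FPKM in cadmium and 175 FPKM in control, and its minus-strand partner at 3.06 FPKM in cadmium and 1.66 FPKM in control. On contig C4922387 an unstranded intergenic locus in the interval was low in cadmium too, with 2.33 FPKM there and 14.4 FPKM in control.

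**Figure D5:**
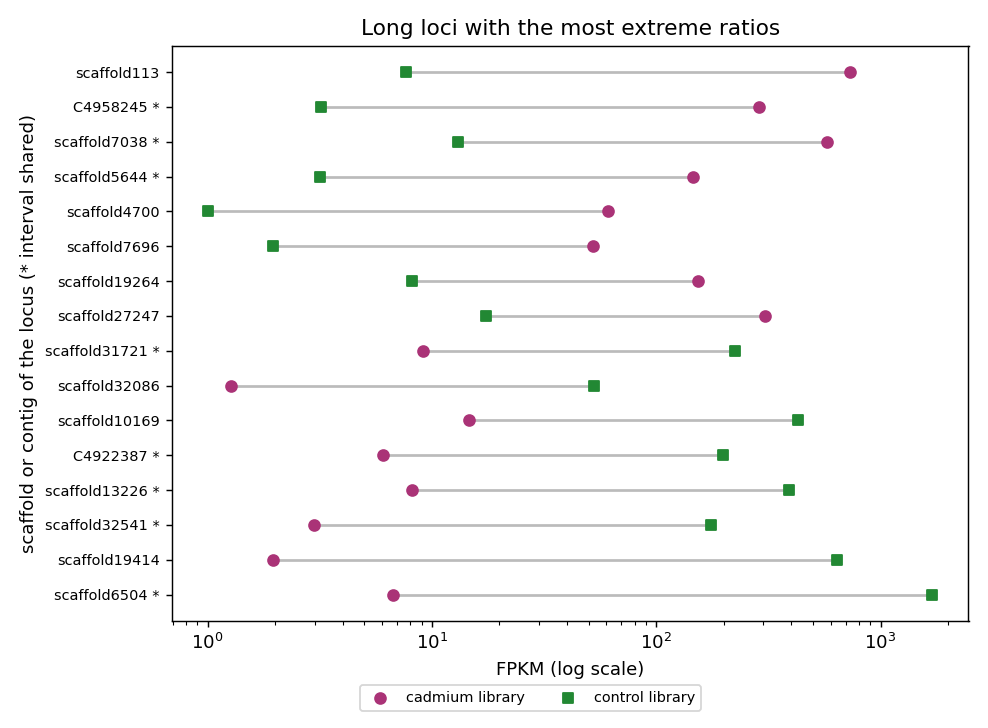
FPKM on a log axis in the cadmium library (purple circles) and the control library (green squares) for the 8 highest and the 8 lowest ratios among the 3093 members with 1 FPKM in each library and 10 in either, 1 row a locus, named by scaffold or contig. A star marks an interval shared with other loci. The circle is right of the square in the upper 8 rows and left of it in the lower 8.

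Few tested members were listed at 0 in 1 library. This was so for 14 of 4585 in the cadmium library and 13 in the control library, against 99 and 130 of 10277 compact loci. Of the 1397 tested compact loci of 8000 to under 10000 bases, 1 was at 0 in cadmium and 5 in control. Few zeros were therefore not particular to the members. Over all 33904 tested loci 4044 were listed at 0 in cadmium and 1328 in control. The highest value opposite a 0 was on scaffold6589 from 10602 to 31847, where the member was listed at 0 in cadmium and stood at 297 FPKM in control. The 3 other loci in its interval were at 0 in both libraries. In the other direction the member on scaffold21296 from 145008 to 200605 reached 43.2 FPKM in cadmium and was listed at 0 in control. A 0 in such a table can be a failed estimate, so no ratio is given for these loci. The plus-strand member on scaffold8057 from 35141 to 53430 was listed at 1.45e-141 FPKM in cadmium, against 4.36 FPKM in control. That value is not exactly 0 and is not counted among the zeros.

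Most other zeros lay opposite low values. The members at 0 in cadmium had a median of 8.13 FPKM in control, and those at 0 in control had a median of 4.04 FPKM in cadmium. Next in size were members on scaffold5938 from 143202 to 159793 and scaffold17745 from 39507 to 60466, with 22.1 and 20.7 FPKM in control. On the cadmium side the next values were 21.0 FPKM on scaffold7375 and 8.14 FPKM on scaffold25037 from 16627 to 63483.

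The most abundant member took a larger share of the summed level in cadmium than in control. The member on scaffold5479 from 172738 to 199277, with an interval of its own, stood at 15588 FPKM in cadmium and 1759 FPKM in control, an 8.86-fold ratio. It made up 10.4% of the members' summed FPKM in cadmium and 1.495% in control. The second, on scaffold19772 from 79125 to 91702, had 8392 FPKM in cadmium, against 3700 FPKM in control, 2.27-fold higher. Without these 2 loci the members summed to 126006 FPKM in cadmium and 112166 FPKM in control.

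Of the other members highest by mean level, scaffold6504 was described above. The one on scaffold29255 from 110384 to 136856 had 1068 FPKM in cadmium, against 260.6 FPKM in control. The one on scaffold23068 from 59427 to 78882 was within 2-fold, with 505 FPKM in cadmium and 939 FPKM in control. The 3 values nearest to equal among 103 members of 100 FPKM or more in each library were chosen for that. On scaffold7029 they were 129 FPKM in cadmium and 131 FPKM in control. On scaffold7537 they were 137 FPKM in cadmium and 140 FPKM in control, and on scaffold8084 660 FPKM in cadmium and 647 FPKM in control.

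The longest interval was a shared one. It covered 169964 bases of scaffold1493, from 171452 to 341415, and held 13 loci. The member there stood at 6.38 FPKM in cadmium and 8.09 FPKM in control. Of the 12 others, all of reference structure, 10 were at 0 in both libraries, and 1 reached 13.2 FPKM in cadmium and 38.8 FPKM in control. The longest member with an interval of its own covered 137775 bases of scaffold822, from 18944 to 156718, with 2.47 FPKM in cadmium and 2.95 FPKM in control. The next, 128854 bases on scaffold25941 from 27227 to 156080, had 75.2 FPKM in cadmium, against 25.1 FPKM in control.

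Shared intervals with many loci held members of varied level. On scaffold1508 from 71424 to 195220 the interval held 11 loci besides the member, which stood at 83.5 FPKM in cadmium and 13.5 FPKM in control. A reference-structure locus there was listed at 0 in cadmium and stood at 140 FPKM in control. On scaffold1281 from 178 to 49581 the member stood at 4.86 FPKM in cadmium and 3.03 FPKM in control, and none of the 11 others exceeded 1.21 FPKM in cadmium or 1.13 FPKM in control.

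The values just inside and just outside the length limit are given here without a comparison. The shortest members covered 10000, 10006 and 10007 bases. They stood at 101, 5.97 and 1.68 FPKM in cadmium, and at 33.5, 0.79 and 1.91 FPKM in control, in the same order. The longest class j loci below the limit, of 9998, 9998 and 9997 bases, stood at 7.71, 7.70 and 40.2 FPKM in cadmium and at 4.74, 2.19 and 24.0 FPKM in control.

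The scaffold with most members was scaffold7375, with 9 between positions 12067 and 151914. Of these 8 were within 2-fold, with log2 ratios from -0.06 to 0.76. The most abundant of them, on the minus strand of the interval from 12067 to 34682, had 126 FPKM in cadmium, against 84.7 FPKM in control. The ninth was the minus-strand member at 0 in control named above. It shares the interval from 79034 to 104010 with 2 further members, which stood at 66.2 and 18.4 FPKM in cadmium and at 65.9 and 16.7 FPKM in control.

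The ratios of members and of loci just outside their interval were compared by the class of the neighbour. Within 1000 bases, 1577 members (33.5%) had another locus, against 34.4% of compact loci. For 856 pairs of a member and a neighbouring class j locus, both tested, the log2 ratios had a Spearman's rho of 0.0033. For 207 pairs of a member with an intergenic neighbour it was 0.02, and for 504 such pairs of compact loci 0.26. For the other classes of neighbour of members rho was 0.10 over 286 pairs with reference-structure loci, 0.14 over 97 pairs with loci of another exon overlap and 0.42 over 19 pairs with antisense loci. In the 286 pairs with reference-structure loci the neighbour of the member was lower in cadmium in 118 and higher in 34. Beside compact loci it was lower in 285 of 745 pairs and higher in 101. Lower shares were high in this class as a whole. Among all tested reference-structure loci 33.3% of the long and 56.7% of the shorter ones were lower, against 28.6% of all tested loci. Higher were 14.5% of the long and 13.3% of the shorter ones, against 20.6% of all tested loci. Whether the neighbours differ from others of their class was not tested. The members beside reference-structure neighbours had a median log2 ratio of 0.05.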

How the data were processed

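Root RNA of 1 cadmium and 1 control library was measured. The authors deposited FPKM per locus and library, per the file headers; Cuffnorm 2.2.1, Cufflinks 2.2.1 and TopHat2 2.0.13 are named in the submitters' processing notes, without roles or settings. A scaling between libraries may be included. The genome build is not given in the sources used here. A second deposited table gave 1 exon, class code and start-site number per locus.

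Class codes were joined to levels by locus identifier and members taken at 10000 bases or more. Log2 ratios used a pseudocount of 1 and loci with at least 1 FPKM in 1 library. Fragment steps were fitted on reference-structure loci of 500 bases or more listed as 1 exon, choosing the step that made most values whole; 97.8% of cadmium and 98.1% of control values above 0 then came out whole within 0.05. Intervals are 1-based.

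The members and lists were chosen with earlier results of these data known. Loci named are the extremes of ratio, level, length and number of loci in the interval, and those nearest the length limit or a ratio of 0, by a rule of ranks; no gene lists could be matched. Start-site groups and shared intervals were taken up after the files were seen. Software was matplotlib 3.10.9, pandas 2.3.3, numpy 2.4.6, scipy 1.17.1 and Python 3.11.15.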

Additional observations from a re-analysis of the deposited data

How the results depend on the processing

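No paired analysis was possible because a single library stood for each group, and none could be left out. A count or level was taken as moved beyond 1.5 times its value, a median log2 ratio beyond 0.1. With a pseudocount of 5, the long loci had 476 higher (10.4%) and 234 lower (5.10%), compact loci 1387 (13.5%) and 1135 (11.0%). Of all tested loci 11.2% were then higher and 15.7% lower. With a fold of at least 4, long loci had 208 (4.54%) and 115 (2.51%), compact loci 765 (7.44%) and 649 (6.32%). All tested loci then had 7.86% and 14.1%. A length limit of 5000 bases gave 1665 (17.3%) and 1103 (11.5%) of 9628 long loci. Of 5234 compact loci it gave 1205 (23.0%) and 1035 (19.8%). A limit of 20000 gave 243 (15.5%) and 132 (8.43%) of 1566 long loci. These counts moved by construction of the groups, and the shares over all tested loci stayed 20.6% and 28.6%. Loci with an interval of their own, a restriction added after seeing the data, gave 475 (14.9%) and 229 (7.20%) long loci out of fewer tested, 3182. All tested loci with such an interval had 20.3% and 29.9%. Equal upper quartiles over tested loci shifted the cadmium library by 0.15 and moved the medians to 0.30 (long) and 0.26 (compact). Equal upper quartiles over loci above 0, added after seeing the data, reversed them to -0.0030 and -0.041. The long median lay above the compact one in every setting run, by 0.02 to 0.11. Under a change of scaling alone this difference was nearly fixed in advance. The other 81 values for these counts, medians and levels stayed within the limits. Of the log2 ratios of 40 named loci, 2 near 0 changed sign: on scaffold7029 to 0.056 and 0.13, on scaffold7537 to 0.055 and 0.13, with the median ratio set to 0 and with equal upper quartiles over tested loci. Among the other values of named loci under changed settings, 84 moved by more than 0.1 and 72 did not. Equal upper quartiles over loci above 0 were not run for named loci. The number of fragments behind spliced loci is unknown and limits every ratio of a low locus.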
